A study of Mus musculus with 2 samples.

Results

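The genes described here are 31 genes of fatty acid uptake and oxidation, chosen by name, among 15747 annotated genes with reads in long-read RNA sequencing of mouse gastrocnemius, the large calf muscle. All 31 had at least 1 read, 30 had reads in both libraries, and 29 had the 10 reads in the sum needed for a test. Tissue was taken at 14 days of age from females of B6CASTF1/J, a cross of C57BL/6 with CAST, and each library started from 2 µg of total RNA. There is 1 group of 2 libraries, labelled biological replicates 1 and 2, and no conditions are set against each other. Replicate 1 is described as coming from 3 females, replicate 2 only as female, and the donor identifier is the same for both. Nothing in the labels tells whether animals were pooled, so the spread between the libraries may be technical in part.

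Muscle takes up fatty acids that lipoprotein lipase frees from circulating triglyceride, and it also draws on its own lipid droplets. Inside the fibre the acids are carried by a binding protein, activated to acyl-CoA and passed into mitochondria by the carnitine shuttle, whose entry enzyme is inhibited by malonyl-CoA. Each turn of beta-oxidation then uses a dehydrogenase, a hydratase, a second dehydrogenase and a thiolase, and electron transfer flavoprotein hands the electrons on to the respiratory chain. Suckling pups live on milk, a diet rich in fat.

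Replicate 1 held 1248854 reads of annotated genes and replicate 2 held 1106450, and gene levels are given as reads and as reads per 1000000 of these (CPM). A transcript gives 1 long read whatever its length, so CPM needs no division by length, but the libraries differed in the lengths they held. Averaged over reads, the transcript model measured 2347 bases in replicate 1 and 1545 in replicate 2. Reads in full splice models were 89.1% and 80.6%. These models match an annotated chain of introns or hold an unannotated chain, whose completeness was not tested. Incomplete matches to an annotated chain and models of the class Genomic are left out. Where a gene has 0 reads, its level may be anything up to that of 3 reads, 2.40 CPM in replicate 1 and 2.71 CPM in replicate 2. Intervals, floors and Fisher tests below take reads as the units and cover counting error only, not the spread between animals or preparations. They may understate even that error, since several reads may stem from 1 molecule where no molecular identifier marks them. A test between the libraries compares these libraries and not conditions. All 8 markers of skeletal muscle fibres had reads, with summed levels of 292898 and 193905 CPM. Most of that gap lay in Atp2a1 (115580 and 35810 CPM). Myh4 (23064 and 11318 CPM), Myh1 (6669 and 1270 CPM) and Casq1 (9596 and 6718 CPM) were also higher in replicate 1. Of these, Atp2a1 and Myh1 were called as higher there. Acta1 (71568 and 72383 CPM), Ckm (61198 and 60043 CPM) and Tnni2 (3908 and 3889 CPM) stood level. Tnnt3 (1315 and 2475 CPM) was called as higher in replicate 2. Of 7 adipocyte markers 6 had reads, with sums of 24.02 and 38.9 CPM and none for Lep, and the 6 endothelial markers summed to 279 and 175 CPM. Cardiomyocyte markers summed to 7.21 and 2.71 CPM with Nppa, Nppb and Myl7 at 0 reads, and all 5 hepatocyte markers were at 0. The part of these cells in the levels below was not tested, and in whole tissue fewer cells of a type cannot be told apart from less RNA per cell.

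The 31 genes took 10353 reads in replicate 1, 0.829% of gene reads (95% Wilson interval 0.813 to 0.845%). In replicate 2 they took 6125 reads, 0.554% (0.540 to 0.568%), so the mean share was 0.691% ± 0.195 (SD, n = 2). Fabp3 alone made up 20.5% of the members' reads in replicate 1 and 27.3% in replicate 2. The median member stood at 179 CPM in replicate 1 and 97.6 CPM in replicate 2. Levels spanned from 1606 ± 137 CPM for Fabp3 to 3.06 ± 2.06 CPM for Acot2. Acadvl, Hadhb, Etfb, Acadl and Acadm followed Fabp3 in the order of mean CPM, and Acsl6, Cpt1a, Lipe and Acot2 stood at the bottom. Some neighbours in this order, such as Acadvl (541 ± 266 CPM) and Hadhb (465 ± 218 CPM), differed by less than their spread over the libraries. Fabp3 lay above Acadvl by more than the spread of either.

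**Figure D1:**
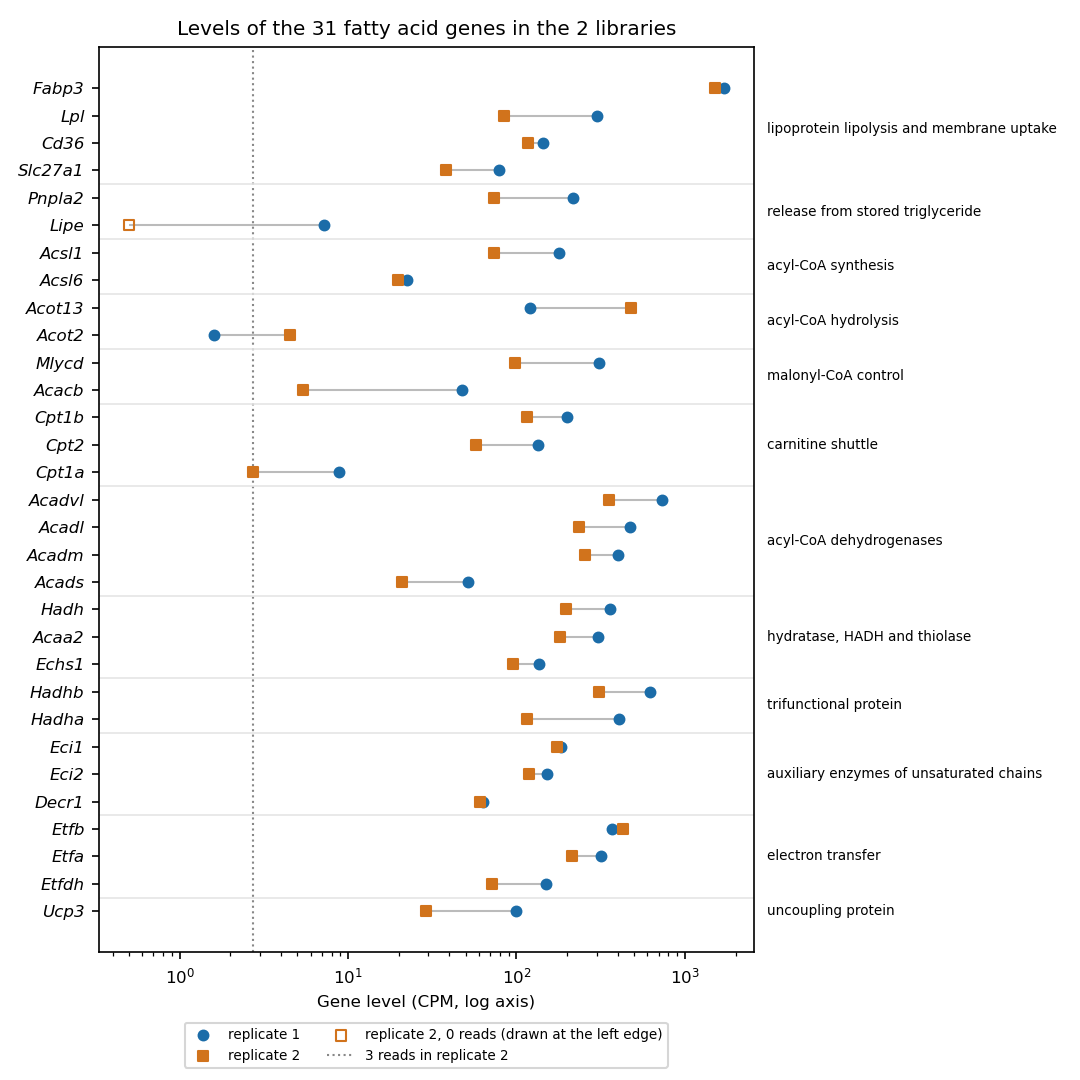
Levels of the 31 genes in CPM on a log axis, ordered by role and by mean level within a role. Circles are replicate 1 and squares replicate 2, and most circles lie to the right of their squares, with Acot13, Etfb and Acot2 the other way round.

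Fabp3, the fatty acid binding protein of heart and skeletal muscle (chromosome 4, 130308595 to 130315463), had 2127 reads in replicate 1 and 1670 in replicate 2, or 1703 and 1509 CPM. It ranked 46th among all annotated genes in replicate 1 and 69th in replicate 2. Its log2 ratio was -0.11 on the TMM scale, which lies 0.28 from scaling by total gene reads, and 0.17 by total reads, so its direction depended on the scale. Lpl, lipoprotein lipase (chromosome 8, 68880491 to 68907448), had 374 and 94 reads, or 299 and 85.0 CPM. Cd36, the fatty acid translocase of the cell surface (chromosome 5, 17781690 to 17888801), had 179 and 129 reads, 143 and 117 CPM. Slc27a1, the fatty acid transport protein FATP1, had 99 and 42 reads, 79.3 and 38.0 CPM. Counted by all reads, Lpl was thus over 2-fold higher in replicate 1 than in replicate 2 while Fabp3 and Cd36 stood at like levels. In full splice models, however, Cd36 had 128 and 36 reads (log2 ratio 1.21). With the trend over transcript length removed, as described below, Fabp3 stood at 1.09.

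Of the lipases that free acids from stored triglyceride, Pnpla2, adipose triglyceride lipase (chromosome 7, 141455198 to 141460743), had 270 and 82 reads, 216 and 74.1 CPM. Lipe, hormone-sensitive lipase, had 9 reads in replicate 1 and 0 in replicate 2, which allows up to 2.71 CPM there. Pnpla2 carried most of the lipase reads in both libraries. Dgat2, which makes triglyceride, and the droplet protein Plin5, the most abundant genes of a list of 11 droplet and lipase regulators, stood at 81.2 ± 67.5 and 68.4 ± 29.0 CPM.

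Of the acyl-CoA synthetases, Acsl1, the main long-chain form of muscle and fat (chromosome 8, 46471037 to 46536051), had 224 and 81 reads, 179 and 73.2 CPM. Acsl6, a form known best from brain (chromosome 11, 54303798 to 54364756), had 28 and 22 reads, 22.4 and 19.9 CPM. Of the reads of both genes Acsl1 took 88.9% in replicate 1 (95% Wilson interval 84.4 to 92.2%). Its share in replicate 2 was 78.6% (69.8 to 85.5%). In full splice models the shares were 88.7% and 87.5%. GENCODE M21 annotates in each gene a pair of neighbouring coding exons of 78 bases that are used in place of each other, background on which is that they encode versions of the fatty acid gate of the enzyme. They are shown because the reads of each gene used the same side of its pair. The sequences are from GENCODE M21 transcripts (mm10, plus strand, coding, 5′ to 3′), and capitals mark the bases at which the exons of one gene differ when laid side by side without gaps.
Acsl1 chr8:46521268-46521345: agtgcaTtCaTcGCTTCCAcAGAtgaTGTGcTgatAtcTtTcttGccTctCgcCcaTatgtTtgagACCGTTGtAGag
Acsl1 chr8:46521410-46521487: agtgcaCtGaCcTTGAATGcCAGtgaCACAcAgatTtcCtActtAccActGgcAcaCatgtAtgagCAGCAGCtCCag
Acsl6 chr11:54336936-54337013: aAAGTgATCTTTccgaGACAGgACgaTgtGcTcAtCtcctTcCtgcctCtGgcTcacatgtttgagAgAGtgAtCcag
Acsl6 chr11:54337071-54337148: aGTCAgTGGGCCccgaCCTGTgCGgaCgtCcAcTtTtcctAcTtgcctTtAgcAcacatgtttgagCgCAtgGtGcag
The Acsl1 exons were identical at 42 of 78 bases (53.8%) and the Acsl6 exons at 46 (59.0%). Between the genes, the upstream exons shared 49 bases (62.8%) and the downstream exons 46 (59.0%). Of Acsl1 reads with either exon, 209 of 210 in replicate 1 and 65 of 67 in replicate 2 held the upstream exon alone, 99.5% (95% Wilson interval 97.4 to 99.9%) and 97.0% (89.8 to 99.2%). The other 1 and 2 reads held both exons, and 0 held the downstream exon alone. In Acsl6 all 24 and all 9 such reads held the upstream exon alone, a count that still allows a share below 100% down to 86.2% and 70.1%. These exons were picked after their counts were seen.

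Thioesterases, which split acyl-CoA, include Acot13, the single member called as higher in replicate 2. Acot13 (chromosome 13, 24817948 to 24831540) had 150 reads in replicate 1 and 530 in replicate 2, 120.1 and 479 CPM. Of these, 26 and 362 reads fell in a single incomplete model of 244 bases, 24817948 to 24818191, which lies in the last of 3 exons and holds 154 coding bases. Full splice models of Acot13 held 122 and 162 reads, so most of its excess in replicate 2 was in that short model. Acot2, a mitochondrial thioesterase, had 2 and 5 reads. Acot1, a close paralog of Acot2, had 4 and 1, so the division of reads between them is uncertain.

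The enzymes that set malonyl-CoA were both higher in replicate 1. Mlycd, malonyl-CoA decarboxylase (chromosome 8, 119394878 to 119411102), which removes malonyl-CoA, had 386 and 108 reads, 309 and 97.6 CPM. Acacb, the muscle acetyl-CoA carboxylase that makes it (chromosome 5, 114146535 to 114250761), had 59 and 6 reads, 47.2 and 5.42 CPM. Acaca, the isozyme of fat-making tissues, had 4 and 1 reads, so Acacb took 93.7% of the pair in replicate 1 (95% Wilson interval 84.8 to 97.5%). In replicate 2 it took 85.7%, with a wide interval (48.7 to 97.4%). Acacb has the longest transcript of the members, 8788 bases, and only 14 and 1 of its reads were full splice.

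In the carnitine shuttle the muscle form prevailed. Cpt1b, the muscle entry enzyme (chromosome 15, 89416405 to 89425863), had 251 and 128 reads, 201 and 116 CPM. Cpt1a, the liver form, had 11 and 3 reads, which left Cpt1b with 95.8% of the pair in replicate 1 (95% Wilson interval 92.6 to 97.6%). In replicate 2 its share was 97.7% (93.5 to 99.2%). Cpt2, the enzyme of the inner membrane, had 168 and 64 reads, 135 and 57.8 CPM. A readthrough gene, Gm44502, overlaps all of Cpt1b on its strand and took 1 and 0 reads. Around the shuttle, Crat, which makes short acylcarnitines, was more abundant than any shuttle member at 470 ± 308 CPM (858 and 279 reads), and the exchanger Slc25a20 stood at 26.8 ± 8.52 CPM.

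Among the acyl-CoA dehydrogenases, the very long chain enzyme stood highest and the short chain enzyme lowest. Acadvl (very long chains, chromosome 11, 70010183 to 70015411) had 910 and 390 reads, 729 and 352 CPM. Acadl (long chains) had 593 and 262 reads, Acadm (medium chains) 500 and 281, and Acads (short chains) 64 and 23. As shares of the 4 genes, Acadvl took 44.0% and 40.8%, Acadl 28.7% and 27.4%, Acadm 24.2% and 29.4%, and Acads 3.10% and 2.41% in replicates 1 and 2. Thus Acadl was above Acadm in replicate 1 and below it in replicate 2, whereas Acadvl led and Acads came last in both. Only the intervals of Acadm did not overlap between the libraries (22.4 to 26.1% and 26.6 to 32.4%).

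Acadvl showed an annotated choice of coding exon. In Acadvl-202, which held 94.5% of full splice reads in replicate 1 and 94.1% in replicate 2, exon 3 has 66 bases, 22 codons, at chr11:70014793-70014858 on the minus strand. Acadvl-201 leaves it out without a change of reading frame. The sequence, from GENCODE M21 (mm10), is shown with the exon in capitals and the last 20 bases of exon 2 and first 20 of exon 4 in lower case.
Acadvl exon 3: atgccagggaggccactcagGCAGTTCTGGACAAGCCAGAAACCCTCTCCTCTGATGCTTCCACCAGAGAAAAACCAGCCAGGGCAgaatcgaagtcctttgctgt
Of 875 informative reads in replicate 1, 24 joined exon 2 to exon 4, 2.74% (95% Wilson interval 1.85 to 4.05%), and of 336 in replicate 2, 12 did, 3.57% (2.05 to 6.14%). The intervals overlapped, and Fisher's exact test with Benjamini-Hochberg adjustment over all exons gave an adjusted p of 1. This exon was chosen after its values were seen.

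The later steps of the cycle were carried by both soluble enzymes and the trifunctional protein. Of the soluble enzymes, Hadh, hydroxyacyl-CoA dehydrogenase, had 448 and 217 reads, 359 and 196 CPM. Acaa2, the thiolase, had 382 and 201 reads, 306 and 182 CPM, and Echs1, the short-chain hydratase, had 171 and 105 reads, 137 and 94.9 CPM. All were within 2-fold between the libraries. The trifunctional protein joins these steps for long chains in 2 subunits, whose genes lie head to head on chromosome 5 with 86 bases between their annotated starts. Hadha, the alpha subunit (30118304 to 30155162, minus strand), had 505 and 128 reads, 404 and 116 CPM. Hadhb, the beta subunit (30155248 to 30184593, plus strand), had 774 and 344 reads, 619.8 and 311 CPM. Hadha thus took 39.5% of the pair in replicate 1 (95% Wilson interval 36.8 to 42.2%). Its share of 27.1% in replicate 2 (23.3 to 31.3%) lay lower, and the intervals did not overlap. The Hadha transcript, at 3983 bases, is longer than that of Hadhb at 2039 bases.

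For unsaturated chains, Eci1 and Eci2, the enoyl-CoA isomerases, and Decr1, dienoyl-CoA reductase, stood at like levels in the libraries. Eci1 had 230 and 194 reads, 184 and 175 CPM. Eci2 had 190 and 131 reads, 152 and 118 CPM. Decr1 had 79 and 67 reads, 63.3 and 60.6 CPM. None of them was called, with log2 ratios of -0.21, 0.08 and -0.22.

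Electron transfer genes were unequal between subunits. Etfb, the beta subunit of electron transfer flavoprotein (chromosome 7, 43444083 to 43457800), had 462 and 472 reads, 369.9 and 427 CPM. Etfa, the alpha subunit, had 398 and 235 reads, 319 and 212 CPM, so Etfa took 46.3% of the pair in replicate 1 (95% Wilson interval 43.0 to 49.6%). In replicate 2 it took 33.2% (29.9 to 36.8%). Etfb is the shorter of the pair, 893 against 1392 bases. Gm45233, a gene model that overlaps nearly all of Etfb on the same strand, took 0 and 65 further reads, so the level of Etfb in replicate 2 is uncertain by about that number. Etfdh, which passes the electrons to ubiquinone, had 186 and 79 reads, 149 and 71.4 CPM. Ucp3, the uncoupling protein of skeletal muscle (chromosome 7, 100472990 to 100486432), had 124 and 32 reads, 99.3 and 28.9 CPM. Ucp1, its counterpart in brown fat, had 0 reads in both libraries.

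Between the libraries, 8 of 29 tested members were higher in replicate 1 and 1 was higher in replicate 2. A call needed an adjusted p under 0.05 in Fisher's exact test (two-sided, Benjamini-Hochberg over 8973 genes) and a 2-fold ratio on the TMM scale. Over all 8973 genes 20.2% were called, 8.87% as higher in replicate 1 and 11.4% as higher in replicate 2. The 8 were Acacb (log2 ratio 2.76, adjusted p = 1.62e-09), Lpl (1.53, 5.73e-32), Hadha (1.52, 1.04e-42), Ucp3 (1.48, 1.44e-10), Mlycd (1.38, 3.74e-29), Pnpla2 (1.26, 1.62e-18), Acsl1 (1.00, 6.20e-12) and Acads (1.00, 0.000864), each by that Fisher test. Acsl1 and Acads lay just past the 2-fold limit. Acot13 was the member called as higher in replicate 2 (-2.28, 2.11e-59). The median log2 ratio of the tested members was 0.71, beside 0.01 over all tested genes. A further test, edgeR's exact test, had its spread estimated from these same 2 libraries. The differences under test thus counted as spread, so few calls could come out and their lack decides nothing. edgeR's exact test, which takes the spread between the libraries as a common biological coefficient of variation of 0.393, called 0 members at an adjusted p under 0.05 (2 at an unadjusted p under 0.05). It called 0.123% of all genes, 0.0111% as higher in replicate 1 and 0.111% as higher in replicate 2.

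Transcript length moved with the ratio over all genes, and its part in the members' differences was examined by length class. The median log2 ratio of all genes rose from -1.36 in 1019 genes of at most 1000 bases to 0.44 in 3549 genes over 3000 bases. The members' median lay above that of all genes in each of 5 classes. In the shortest class it was -0.49 and rested on 3 members, Acot13 (-2.28), Etfb (-0.49) and Fabp3 (-0.11). Acot13 thus lay below the -1.36 of all genes in that class. The members' median was 0.04 beside -0.62 in the class of 1000 to 1500 bases, which held only 2 members. It was 0.47 beside -0.21 in 7 members of 1500 to 2000 bases, 0.77 beside 0.17 in 10 members of 2000 to 3000 bases and 1.30 beside 0.44 in 7 longer members. With the trend over length removed, 8 members were higher in replicate 1 and 0 in replicate 2, against 3.1% and 6.54% of all genes (9.64% in either direction) by an exact binomial test. Acsl1 (log2 ratio 0.57) and Acot13 (-0.95) lost their calls there, and Fabp3, an abundant short transcript, was called as higher in replicate 1 (1.09). Acacb (2.28), Mlycd (1.33), Ucp3 (1.33), Acads (1.13), Hadha (1.06), Lpl (1.06) and Pnpla2 (1.04) kept theirs.

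**Figure D2:**
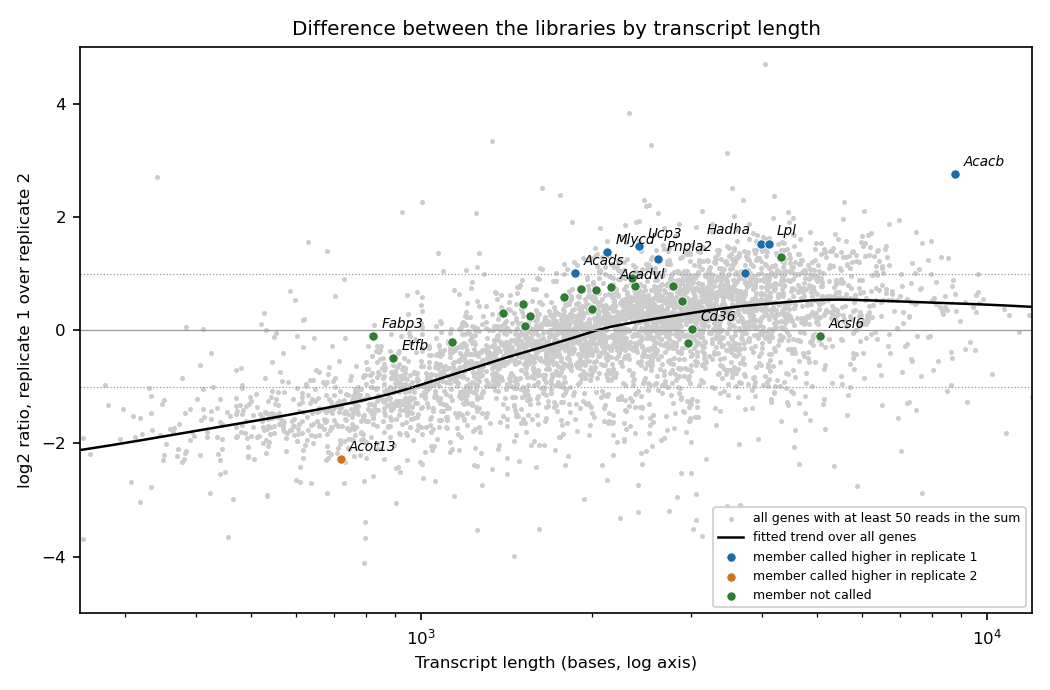
Log2 ratio of replicate 1 over replicate 2 against transcript length in bases (log axis), with genes of at least 50 reads in grey, the fitted trend as a line and the 29 tested members in blue (called as higher in replicate 1), orange (higher in replicate 2) or green (not called). Of the members 25 lie above the line and 4, Acot13, Acsl6, Cd36 and Decr1, below it; Acacb stands farthest above, by 2.28.

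Read completeness was the other feature that moved with single members. Over all members 91.6% of reads in replicate 1 and 82.3% in replicate 2 were in full splice models. Among members with at least 50 reads in a library, the share ran from 23.7% in Acacb to 98.8% in Fabp3 in replicate 1, and from 27.9% in Cd36 to 97.7% in Fabp3 in replicate 2. Of those with 50 reads in both libraries, Acot13 and Cd36 changed most between them. Full splice reads of Cd36 were 128 in replicate 1 and 36 in replicate 2, while an incomplete model of its last 2 exons (1146 bases, with 162 coding bases) held 16 and 69 reads. Counted in full splice models alone, Cd36 was called as higher in replicate 1 (log2 ratio 1.21, adjusted p = 2.75e-08 by Fisher's exact test), and Acot13 stood at -1.01. In Eci2, 16 and 37 reads lay in models of 8 to 10 bases at the end of the last exon, which span no intron. Full splice models gave 8 members higher in replicate 1 and 1 in replicate 2, against 11.5% and 10.9% of 7815 genes (22.3% in either direction). Acsl1 lost its call (0.97) there.

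Other settings of the Fisher test kept most of the calls. Known models alone gave 9 members higher in replicate 1, with Cd36 and Slc27a1 gained and Acacb too sparse to test, and 0 higher in replicate 2, against 12.8% and 10.4% of 6921 genes (23.1% in either direction). Scaling by total gene reads gave 13 and 1, against 12.5% and 9.0% of all genes (21.5%), and added Acadl, Acadvl, Cpt2, Etfdh and Slc27a1. DESeq2 size factors gave the same 9 genes, against 9.7% and 10.8% (20.5%). With no filter on reads Lipe was added, against 4.3% and 6.08% of 15747 genes (10.4%). A minimum of 50 reads gave the same 9 genes, against 8.51% and 19.9% of 4161 genes (28.4%).

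**Figure D3:**
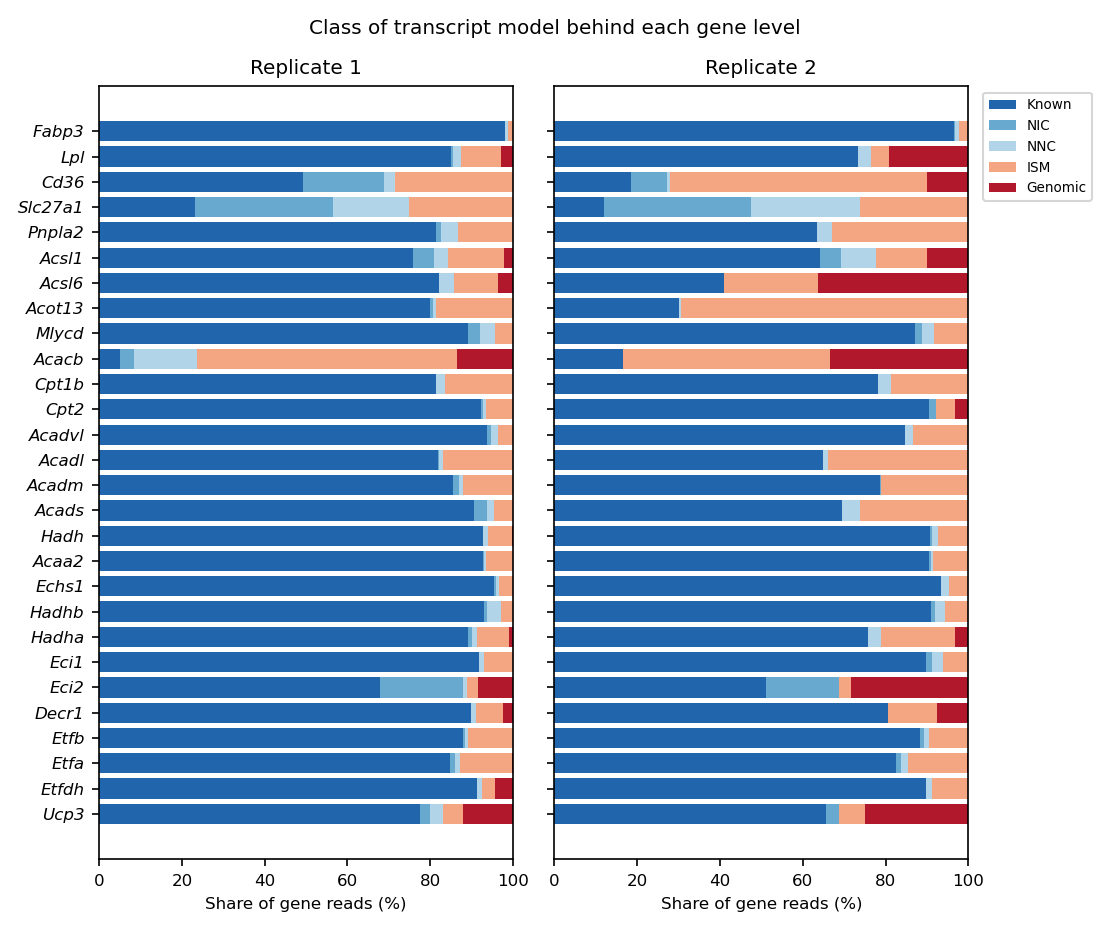
Share of each member's reads by class of transcript model in replicate 1 (left) and replicate 2 (right), for 28 members, without Cpt1a, Lipe and Acot2, which had under 20 reads. Blue classes are full splice (Known, annotated; NIC and NNC, unannotated chains), orange is incomplete splice matches (ISM) and red is unspliced reads over a gene (Genomic); Acacb is mostly incomplete, and Acot13 and Cd36 are so in replicate 2.

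**Figure D4:**
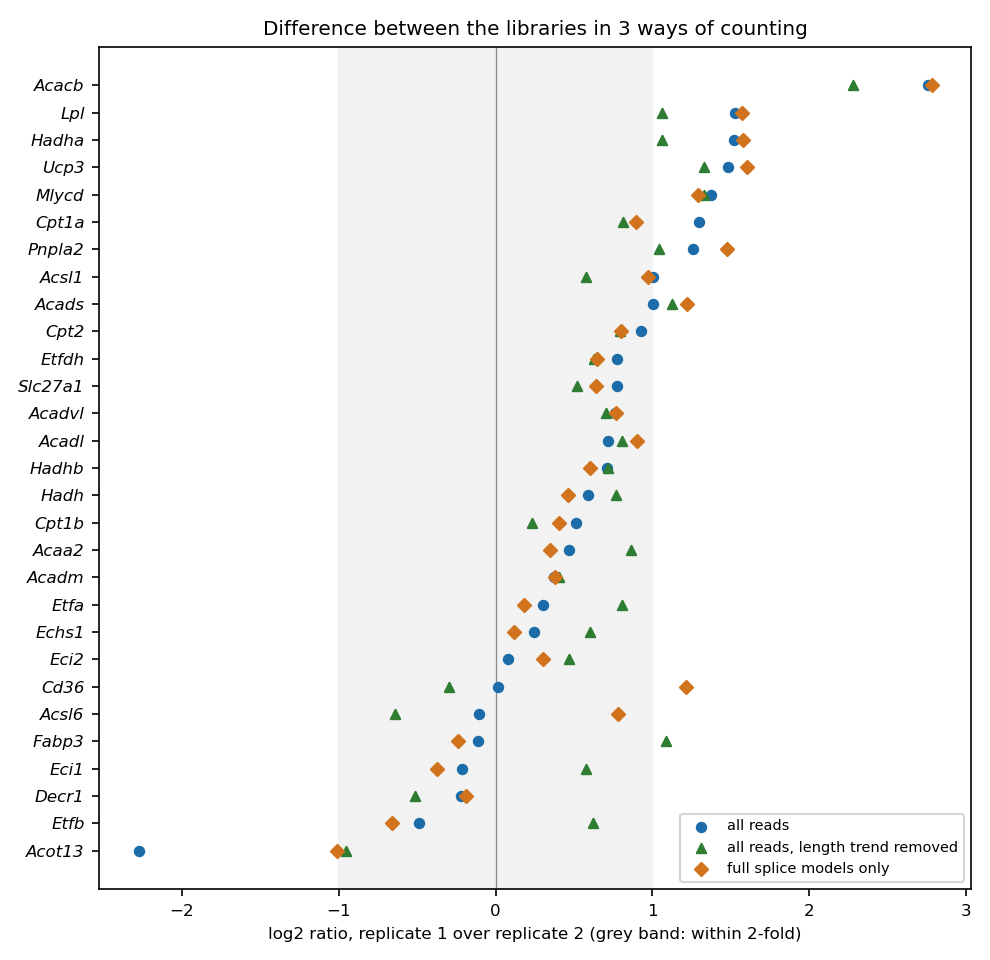
Log2 ratio of replicate 1 over replicate 2 of the 29 tested members, sorted by the ratio of all reads (circles), with the length trend removed (triangles) and in full splice models only (diamonds); the grey band marks ratios within 2-fold. The 3 symbols lie outside the band on the right for Acacb, Lpl, Hadha, Ucp3, Mlycd, Pnpla2 and Acads, while Acsl1, Cd36, Fabp3 and Acot13 move across its edge. The circle of Cpt1a (1.30) also lies outside but rests on 14 reads and was not called.

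Most members used 1 splice form. In 22 members with at least 50 full splice reads in each library and at least 2 models, the use of the leading form was called different in 0 by Fisher's exact test with Benjamini-Hochberg adjustment, and 0 had an unadjusted p under 0.05, while 51 of 1425 genes (3.58%) were called. The leading form held over 90% of full splice reads in both libraries in Fabp3 (Fabp3-201, 99.2% and 99.0%), Acaa2-201 (99.2% and 98.9%), Echs1-201 (98.8% and 98.0%), Decr1-201 (98.6% and 100%), Acadl-201 (98.6% and 98.3%), Hadh-201 (98.6% and 98.0%) and Etfb-201 (98.5% and 97.7%). The same held for Acot13-201, Etfdh-201, Eci1-205, Cpt2-201, Cpt1b-201, Etfa-201, Hadha-205, Lpl-201, Acads-201, Acadm-201, Pnpla2-203, Mlycd-201 and Ucp3-201, with values from 90.9% (Ucp3, replicate 2) to 98.4% (Acot13, replicate 1). Cpt1a-201 had 8 of 9 and 3 of 3 full splice reads, Acot2-201 1 of 1 and 4 of 4, Lipe-202 2 of 7 in replicate 1, and Acsl6-210 18 of 24 and 4 of 9. In Acacb the leading full chain was an unannotated one of 54 exons, with 7 of 14 reads in replicate 1 and 0 of 1 in replicate 2.

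Hadhb, Acsl1, Cd36, Slc27a1 and Eci2 used several forms. Hadhb-201 held 60.2% of full splice reads in replicate 1 (453 of 752) and 60.3% in replicate 2 (196 of 325), and Hadhb-203 held 34.8% and 35.1%. The donor site of exon 1 lies 43 bases further on in Hadhb-203, in the 5′ UTR, and both encode the same 475 codons. Acsl1-201 held 58.7% and 63.5%, and Acsl1-203, whose first exon starts 19929 bases downstream, held 31.2% and 17.5%. Both encode 699 codons from a start in the shared second exon. Cd36-201 held 39.8% of 128 and 36.1% of 36 full splice reads, an unannotated chain 21.1% and 27.8%, and Cd36-204, which starts 14096 bases upstream of Cd36-201, 14.1% and 13.9%. These Cd36 forms differ before the start codon, and 472 codons are annotated for both named forms. Slc27a1-207 held 20 of 74 and 2 of 31 full splice reads, 27.0% and 6.45%, and an unannotated chain held 16.2% and 19.4%. The shares of the Hadhb forms differed by less than 1 percentage point between the libraries. The Wilson intervals of Acsl1-203 (25.0 to 38.1% and 10.04 to 28.6%) overlapped. With a minimum of 20 full splice reads, which lets in Slc27a1, 25 members were tested and 0 called, beside 49 of 2921 genes (1.68%). Slc27a1 was the 1 member with an unadjusted p under 0.05 there (p = 0.0186, adjusted p = 0.428 by Fisher's exact test with Benjamini-Hochberg adjustment).

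In Eci2 the forms change the annotated reading frame's start. Eci2-211 held 46.7% of 169 full splice reads in replicate 1 and 42.2% of 90 in replicate 2, and its 391 codons start in exon 1. Eci2-213, with 9 reads in each library, has an exon 2 that is 10 bases shorter, and its 358 codons start within exon 2. Eci2-201, with another first exon, held 24.3% and 22.2% and also has 358 codons. The 10 bases (chr13:34993221-34993230, minus strand, GENCODE M21, mm10) are in capitals between 24 bases of exon 1 and 24 of exon 2, all coding in Eci2-211.
Eci2 exon 1 to 2: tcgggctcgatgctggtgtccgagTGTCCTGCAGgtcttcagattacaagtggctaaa
An unannotated chain with an exon 2 that is 98 bases longer held 11.2% and 13.3%. The order of the Eci2 forms was the same in both libraries and their Wilson intervals overlapped.

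**Figure D5:**
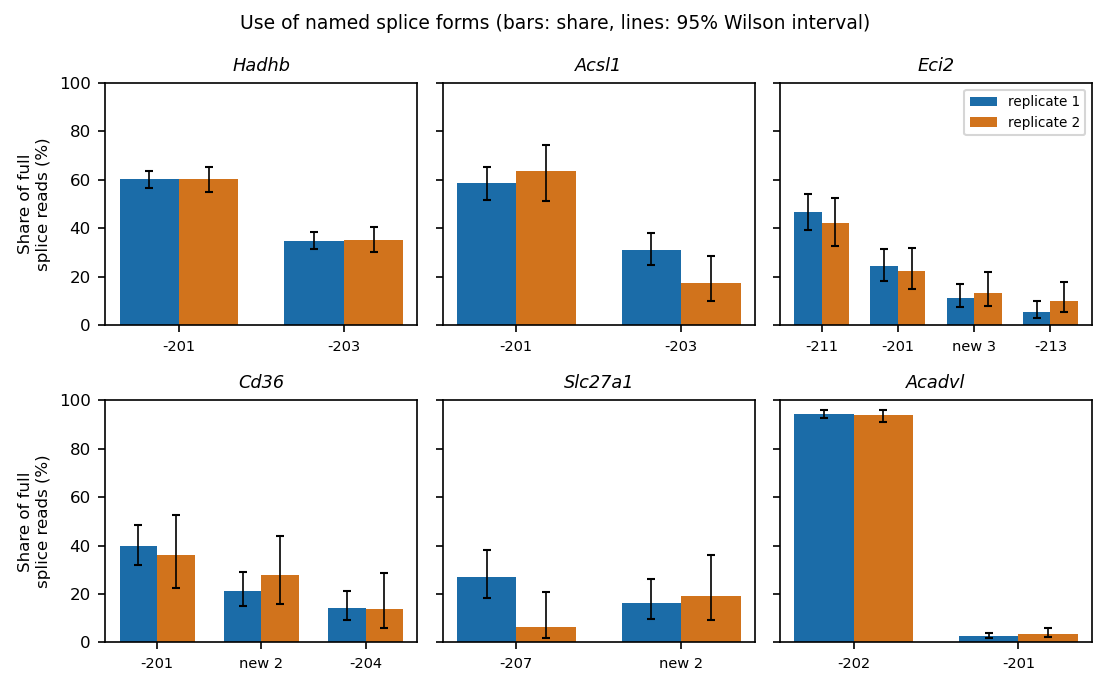
Share of full splice reads held by the named forms of 6 members in replicate 1 (blue) and replicate 2 (orange), with 95% Wilson intervals as lines; the axis gives the ends of GENCODE transcript names and "new" marks an unannotated chain. Hadhb-201 and Hadhb-203 stand at 60.2% and 34.8% in replicate 1 and at 60.3% and 35.1% in replicate 2, and the widest intervals are those of Cd36 and Slc27a1 in replicate 2.

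Exons were mostly constant. Of 238 internal exons tested in 25 members, 229 are annotated and 223 of these were included in at least 95% of informative reads in both libraries. Differences between the libraries were called in 0 of the 238 by Fisher's exact test with Benjamini-Hochberg adjustment (0 at an unadjusted p under 0.05), beside 9 of 24288 exons (0.0371%) in all genes. Of the 238 member exons 3 lay between 10 and 90% inclusion in both libraries, beside 545 of 24288 exons in all genes. The Cd36 exon and the shorter Slc27a1 exon lay before the start codon, while the longer Slc27a1 exon holds it and coding bases after it. An exon of 54 bases in Cd36 (chromosome 5, 17835618 to 17835671) was in 45 of 71 reads in replicate 1 and 14 of 20 in replicate 2, 63.4% and 70.0%. In Slc27a1 an exon of 91 bases (chromosome 8, 71569342 to 71569432) was in 28.1% of 64 and 36.4% of 22 reads. The next Slc27a1 exon of 168 bases (71570721 to 71570888), whose base 2 begins the annotated coding sequence of Slc27a1-207, was in 83.5% of 79 and 82.8% of 29 reads, so 13 and 5 reads passed over it.

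Unannotated splice chains were found again in the other library at rates near those of all genes. In the members, 50 such chains had at least 2 reads in replicate 1 and 24 of them (48.0%) were found in replicate 2, beside 57.6% over all genes. In replicate 2 there were 29, of which 22 (75.9%) were found in replicate 1, beside 74.7%. Those with the most reads were the Cd36 chain of 16 exons named above (27 and 10 reads) and the Eci2 chain with the longer exon 2 (19 and 12). A Fabp3 chain with an unannotated exon of 161 bases at 130309442 to 130309602, between exons 1 and 2, had 14 and 12 reads, and that exon was in 0.666% of 2103 and 0.736% of 1630 informative reads. A Slc27a1 chain with the exon of 91 bases had 12 and 6 reads, and one that joins exon 1 straight to exon 3 had 6 and 2. Further Eci2 chains that start from the first exon of Eci2-201 had 9 and 6 reads (exon 2 shorter by 10 bases) and 9 and 5 (exon 2 longer by 98 bases). A Hadhb chain with an unannotated first intron had 13 and 2 reads, and an Acsl1 chain with an annotated first intron other than that of Acsl1-201 had 6 and 2. In Mlycd, 10 and 2 reads joined exon 1 to exon 4 of the 5 exons of Mlycd-201, without exons 2 and 3.

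Other genes of the pathway, 82 in 9 lists, were set beside the members. Of these 78 had reads and 64 were tested, 16 were higher in replicate 1 and 5 in replicate 2 by the same Fisher test (8.87% and 11.4% of all genes), and the median log2 ratio was 0.30. With the length trend removed the counts were 5 and 3, against 3.1% and 6.54% of all genes. Pdk4, the kinase that holds back pyruvate oxidation, had 1634 and 136 reads (log2 ratio 3.12, and 2.73 with the trend removed). Of 9 tested regulators it was 1 of the 2 called. The other, the nuclear receptor Esrra, had 142 and 1039 reads (-3.32), but 34 and 8 of them were full splice, and in these Esrra was called as higher in replicate 1 (1.44). Ppara, the receptor known for driving fatty acid oxidation genes, had 1 and 0 reads, Ppard 1 and 4, and the coactivator Ppargc1a 9 and 1.

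In carnitine transport, Crat (log2 ratio 1.16) and Slc22a5, the carnitine importer (1.27), were 2 of 4 tested that were higher in replicate 1. Beside the counts of this and the following lists, 8.87% of all genes were called as higher in replicate 1 and 11.4% as higher in replicate 2. Of 11 tested peroxisomal genes 4 were higher in replicate 1, among them the transporters Abcd2 (1.14) and Abcd3 (1.22) and the bifunctional enzyme Hsd17b4 (1.80). The most abundant, Scp2 (175 ± 15.0 CPM) and Acaa1a (93.3 ± 11.8 CPM), were not called. Of other transport and activation genes 3 of 10 were higher in replicate 1, Acsl4 (1.49) and the acetate-activating Acss1 (1.58) and Acss2 (1.85). In that list 2 were higher in replicate 2, the acyl-CoA binding protein Dbi (253 and 609 reads, -1.72) and the fat and endothelial binding protein Fabp4 (147 and 242 reads, -1.17). Lipid droplet genes gave Dgat2 (1.65) and Plin4 (1.28) in replicate 1 and G0s2, an inhibitor of the Pnpla2 lipase, in replicate 2 (11 and 35 reads, -2.07), of 10 tested.

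Malonyl-CoA and synthesis genes gave Fasn (1.59) and the kinase subunits Prkaa1 (1.61) and Prkaa2 (1.57), 3 of 7, and the most abundant, Mcat (39.1 ± 0.942 CPM) and Acly (28.4 ± 10.8 CPM), were not called. Other mitochondrial chain enzymes gave Hsd17b10 (-1.02) of 7, with Acat1 at 153 ± 39.8 CPM. Of 2 tested ketone genes Oxct1, which uses ketone bodies, was higher in replicate 1 (1.35). Over all genes the shares called as higher were 8.87% in replicate 1 and 11.4% in replicate 2. None of 4 thioesterases outside the members was called, with Acot9 at 30.2 ± 1.98 and Acot7 at 19.6 ± 0.471 CPM. With the length trend removed, Pdk4, Hsd17b4, Acss1, Acss2 and Dgat2 kept their calls in replicate 1, and of the 5 in replicate 2 Esrra alone kept its call.

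The promoters of the members were searched on both strands for the hexamer AGGTCA, which nuclear receptors such as the PPAR and ERR families bind, and for AGGTCANAGGTCA, a direct repeat of it with 1 base between. RefSeq windows (GRCm38.p6) of 250 bases before to 50 after the start were at hand for 26 of the 31 members, 32 windows in all. The hexamer was in 8 windows (25.0%), those of Acacb, Acadm, Acadvl, Acsl6, Cd36, Cpt1a, Echs1 and Ucp3, beside 16.3% of 32851 windows of all genes. The repeat, which contains the hexamer, was in 0 member windows and in 0.0396% of all. A match describes letters and not a bound site, and the windows of Acaa2, Acot13, Cpt1b, Decr1 and Lpl were not analysed here.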

How the data were processed

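For each library the authors deposited a table of raw counts (reads of each transcript model) and the models as GTF, on mm10 with GENCODE M21, per the file headers and notes. TALON is named in the GTF attributes, and no aligner or version is. Gene reads are the sum over all models of an annotated gene, and CPM uses the total of annotated genes. Coordinates are those of GENCODE M21, since gene spans did not match these in both deposited files for 25 members. Ratios use edgeR 4.0.16 TMM factors (R 4.3.3) and a prior count of 0.5. Fisher's test (SciPy 1.17.1) compares a gene's reads with those of all other genes by total reads. The length trend is a lowess fit (statsmodels 0.14.6) over genes with at least 50 reads, followed by an exact binomial test. Models were matched between libraries by intron chain. The procedure was tested on simulated data. Members, lists and tests were chosen with earlier results of these data known. All 31 members are named. Of other lists the 2 with the highest mean CPM and each called gene are named, except for some that are not reported here, of splice forms those with at least 10% of full splice reads and 10 reads, of exons those at 10 to 90% inclusion and of unannotated chains the 10 with most reads. Alternatives were other scales (totals, DESeq2 1.42.0), read filters, model classes, edgeR's exact test and leaving out a library.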

Additional observations from a re-analysis of the deposited data

Results flagged for a closer look

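Reads of unannotated loci, which enter no gene level, lay on the strand opposite to 5 members above the 3 reads that a count of 0 allows in both libraries. Over Acot2 they numbered 77, 16 in replicate 1 and 61 in replicate 2, each time in 1 unspliced model, while Acot2 itself had 2 and 5 reads. Over Acacb there were 20 such reads (5 and 15), over Eci1 14 (4 and 10) and over Hadhb 14 (5 and 9), none of them spliced. Over Acsl6 there were 13 (8 and 5), of which 4 and 5 were spliced, and the annotated antisense gene Gm12224 took a further 13 and 19 reads there.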

How the results depend on the processing

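With total gene reads as the scale 13 members were higher in replicate 1. In replicate 2 the single call, Acot13, was lost after removal of the length trend and in Known models, which gave 0 each. The edgeR exact test called 0 members in either direction (2 at an unadjusted p under 0.05), and in replicate 1 the other settings gave 8 or 9. An exact binomial test at the TMM scale, added after the data were seen, gave 8 and 1 of 29 members, beside 572 and 1204 of 8973 genes. Fabp3 turned from -0.11 to 1.09 with the length trend removed. Other pathway genes fell from 16 and 5 calls (8.87% and 11.4% of all genes) to 5 and 3 with the trend removed (3.1% and 6.54%). In full splice models they gave 18 and 3, against 11.5% and 10.9% of 7815 genes. In full splice models Acacb took 96.7% of its pair, on 15 and 1 reads, and Acadvl and Acadl took 46.0% and 24.7% of the dehydrogenases. Unannotated chains of at least 5 reads were few. Of those in replicate 1, 10 of 11 (90.9%) were found again, beside 88.4% over all genes. Of those in replicate 2, 6 of 6 (100%) were found again, beside 93.9%. Without replicate 1 or 2 the members' share was 0.554 to 0.829%. The causes were not tested. Depth limits Lipe, Acot2, Cpt1a and the full splice reads of Acacb and Acsl6 most. No paired analysis was possible because there is a single group.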
